A study of Mus musculus with 12 samples.

Results

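RAW264.7 is an established mouse macrophage line. In these cells an siRNA against the long intergenic RNA lincRNA-Tnfaip3 was followed by Escherichia coli lipopolysaccharide (LPS) or by no stimulus, and the LPS response under that siRNA is described here. It rests on 6 of the 12 arrays of the study, chosen by their titles: 3 arrays of cells given the lincRNA-Tnfaip3 siRNA for 24 h and then 1 µg/ml LPS for 4 h, against 3 arrays of cells given the same siRNA for 24 h and then 4 h of culture without LPS. Both groups therefore carry the lincRNA-Tnfaip3 siRNA, and neither is an unmanipulated culture. The other 6 arrays held the same pair of conditions under a scrambled control siRNA and are used here to estimate the spread and for 1 comparison. Total RNA was labelled with Cy3 and hybridised to 1-colour Agilent arrays that carry probes for mouse genes and for long intergenic RNA regions. The labels do not say whether the 3 arrays of a group came from separate cultures, so the p-values measure the spread between these arrays, which may be technical.

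No probe on the array was named for lincRNA-Tnfaip3. The 7 probes with Tnfaip3 in their annotation were not lincRNA probes, so the depth of the knockdown could not be read from these arrays. LPS array 1 and the 3 no-LPS arrays were on slide 2, whereas LPS arrays 2 and 3 were on slide 3. Slide and treatment can be compared within slide 2 only, with 1 LPS array against 3 no-LPS arrays. Between 32702 and 36015 of 55681 probes were well above background on each of the 6 arrays, and no spot was saturated. Of 15 macrophage and monocyte markers, 12 were above background on all 6 arrays, among them Csf1r, Cd68, Lyz2, Spi1 and Itgam, while Cd163 and Mrc1 were above background on none. The summed linear signal of the macrophage markers, in units of the 75th percentile of the array, was 1175 to 1324 on the LPS arrays and 1078 to 1177 on the no-LPS arrays. The dendritic cell markers summed to 124 to 150 on the LPS arrays and 144 to 162 on the no-LPS arrays. Of these, Zbtb46, Itgax and Siglech were above background on all 6 arrays and Xcr1 on none. The T cell markers summed to 15.2 to 19.4 on the LPS arrays and 12.3 to 16.6 on the no-LPS arrays. Cd3e, Cd4, Cd8a and Lck were above background on all 6 arrays, and Cd3d and Cd3g on none. The fibroblast markers summed to 2.29 to 2.41 on the LPS arrays and 1.17 to 2.18 on the no-LPS arrays, with no overlap. Col1a2, Dcn and Acta2 were above background on all 6 arrays, and Pdgfra on none. The epithelial markers summed to 0.308 to 0.377 on the LPS arrays and 0.306 to 0.387 on the no-LPS arrays. Krt5 was above background on all 6 arrays, and Epcam, Krt8 and Cdh1 on none. The endothelial markers summed to 13.9 to 17.4 on the LPS arrays and 10.7 to 17.0 on the no-LPS arrays. Pecam1, Cdh5 and Kdr were above background on all 6 arrays, and Tek on none. The neutrophil markers summed to 3.07 to 3.57 and 2.10 to 3.86, with S100a8, Mpo, Elane and Camp above background on all 6 arrays. B cell, NK cell, and mast cell and erythroid markers each summed to at most 1.19. Some markers could not be tested (4 of 8 T cell and 1 of 5 epithelial markers were). No tested marker of these 10 cell types passed, and their part in the results was not tested.

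LPS is read at the surface of macrophages by Toll-like receptor TLR4 with MD-2 and CD14. The adaptor MyD88 leads from there to NF-kB and MAP kinases, which switch on cytokines, chemokines and their own inhibitors. The adaptor TRIF leads to the transcription factor IRF3 and to interferon beta, and secreted interferon acts back on the cells through transcription factors that include STAT2 and IRF9, which bind interferon-stimulated response elements in front of antiviral genes.

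Levels below are log2 of the processed signal minus the 75th percentile of the array, so that 0 is the 75th percentile of all probes. A level compares arrays for 1 probe and not probes with each other. A log2 change is the mean of the LPS arrays minus the mean of the no-LPS arrays (n = 3 each), with its standard error (SE) from limma's fit, and adjusted p is limma's p with Benjamini-Hochberg adjustment over 23913 features. A feature passed where adjusted p was under 0.05, and rose, fell and changed are used of those features.

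With LPS, 434 features passed, which is 1.81% of those tested, and they were mostly higher: 353 rose (1.48%) and 81 fell (0.339%). An unadjusted p under 0.05 was reached by 2412 features (10.1%). All 3 LPS arrays were above all 3 no-LPS arrays for 1900 features (7.95%) and below them for 1730 (7.23%), so groups without overlap are common here and the text gives them as description only. All 353 features that rose and all 81 that fell had groups without overlap. The median log2 change over all features was -0.01, and over the features that rose it was 1.51, with array medians of 1.60, 1.48 and 1.48 for LPS arrays 1, 2 and 3 against the no-LPS mean. Fitted changes, which take signals below background as they stand, reached 4-fold for 116 of those that rose and 1 of those that fell. Slide 3 held LPS arrays 2 and 3 only, so a block for slide leaves the LPS change to LPS array 1 against the 3 no-LPS arrays. The other arrays then add to the spread alone, and every value given below with the slide block rests on that 1 LPS array. Within slide 2, where LPS array 1 stood alone against the 3 no-LPS arrays, 48 rose and 3 fell, and with slide as a block in the 12-array fit 146 rose and 14 fell. Of the 353 and 81 features, 127 and 4 passed under that block. Leaving out LPS array 1 or LPS array 2 left 216 that rose in each case, and the number that fell was 25 without LPS array 2, 30 without LPS array 3, 37 without no-LPS array 1 and 41 without no-LPS array 2. Among the control-siRNA arrays, 42 features fell without no-LPS array 2, 47 without LPS array 2 and 53 without LPS array 3. Genes are placed below in 54 lists by role, which were chosen with earlier results of these data known. Each count of list members that rose or fell is to be read beside the 1.48% and 0.339% of all features. A gene could be tested when it was above background on all 3 arrays of a single group, so a count over the tested members of a list describes those members and not the list.

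**Figure D1:**
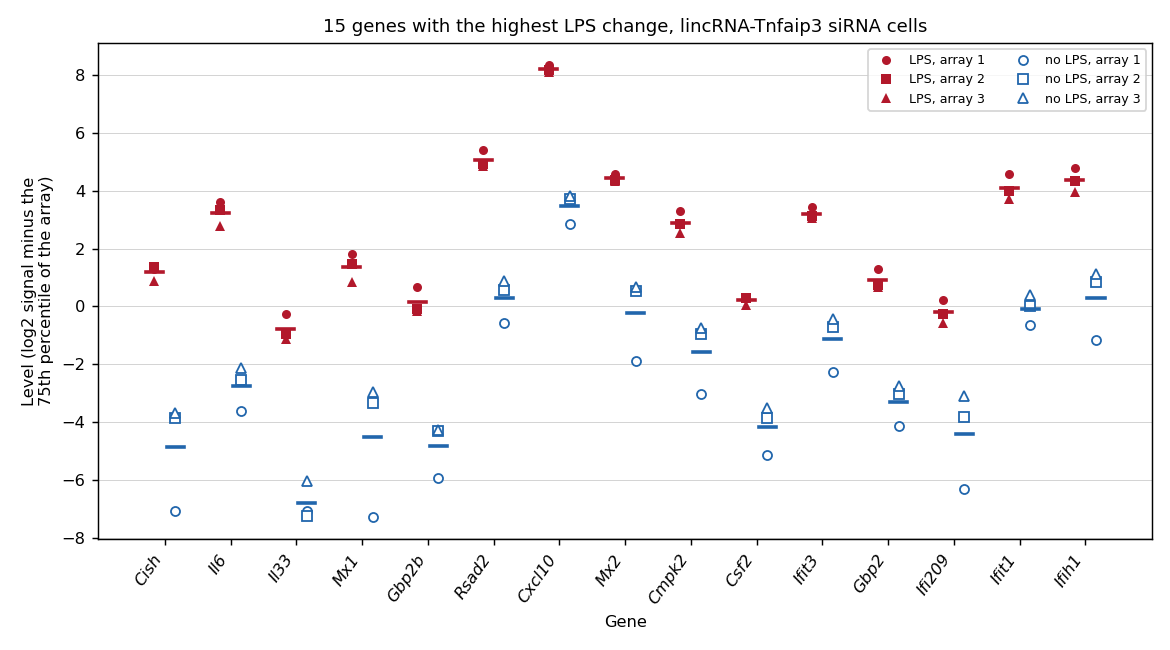
Levels of the 15 genes with the highest log2 change that passed, on each LPS array (filled, array number by marker) and each no-LPS array (open) of lincRNA-Tnfaip3 siRNA cells. The vertical axis is log2 signal minus the 75th percentile of the array and the short bars are the means of 3 arrays. The genes were chosen among those without overlap between the groups, so by that choice the LPS arrays lie above the no-LPS arrays for each of the 15. No-LPS array 1 is the lowest no-LPS array for 14 of them.

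Pro-inflammatory cytokines were among the genes with the highest changes. Of 20 listed pro-inflammatory cytokines 17 were tested, 9 rose and none fell, with a median log2 change of 1.37. Il6, which drives the acute-phase response, had levels of 3.60, 3.34 and 2.79 on the LPS arrays, against -3.63, -2.55 and -2.11 on the no-LPS arrays. The LPS arrays stood far above the no-LPS arrays with no overlap, and the log2 change was 6.01 ± 0.34 (SE, adjusted p = 3.00e-05). Il33, an alarmin of the interleukin 1 family, had levels of -0.27, -0.96 and -1.12 on the LPS arrays, against -7.05, -7.25 and -6.03 on the no-LPS arrays. It was above background on the 3 LPS arrays and on none of the no-LPS arrays, so its change is a bound, at least 17.1-fold higher (adjusted p = 0.000158). The bound sets the LPS mean against a floor for each no-LPS array, which is the dimmest signal that any probe had while well above background or, if higher, the signal of the gene's probe, and it applies to every "at least" given here. An adjusted p printed with a bound is not a test of the bound. It belongs to the fitted log2 change, 5.99 for Il33, which takes signals below background as they stand. Cish, Mx1, Gbp2b, Csf2, Ifi209, Lif, F3, Fpr2, Wnt10a, Trim30d and Trim30a were not above background on 1 no-LPS array and Olr1 on 2 of them, so their fitted changes depend on a signal that was not well measured. With every signal under the floor of its array raised to that floor, an alternative chosen after seeing the data, the log2 changes were 5.34 for Cish, 5.14 for Mx1, 4.66 for Gbp2b, 4.34 for Csf2, 3.75 for Ifi209 and 3.57 for Lif, and these 6 genes passed.

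Lif, a cytokine of the interleukin 6 family, had levels of -1.11, -0.91 and -0.90 with LPS, against -4.37, -4.81 and -5.81 without LPS. The 3 LPS arrays lay close together and above the no-LPS arrays, with a log2 change of 4.02 ± 0.41 (SE, adjusted p = 0.000737). Il1a had levels of 0.21, -0.44 and -0.06 with LPS, against -2.67, -3.16 and -3.54 without LPS, a log2 change of 3.03 ± 0.23 (SE, adjusted p = 0.000133). Il1b had levels of 4.47, 4.13 and 3.94 with LPS, against 1.82, 1.81 and 1.82 without LPS, a log2 change of 2.36 ± 0.17 (SE, adjusted p = 0.000114). These interleukin 1 cytokines, which signal through the same receptor, did not overlap between the groups. Tnf, named after its values were seen, had levels of 7.78, 7.81 and 8.01 with LPS, against 6.40, 6.60 and 6.51 without LPS. Its log2 change was smaller, 1.37 ± 0.10 (SE, adjusted p = 0.000107), and equally free of overlap. All 6 of these cytokines also passed with the slide block, with adjusted p of 0.00402 (Il6), 0.00601 (Il33), 0.0407 (Lif), 0.00614 (Il1a), 0.00497 (Il1b) and 0.00936 (Tnf).

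Of 8 colony-stimulating factor genes tested, the 3 ligands rose and the 5 receptor genes did not pass. Csf1, the growth factor of the macrophage lineage, had levels of 0.47, 0.19 and 0.10 with LPS, against -3.64, -3.26 and -3.20 without LPS. Its spread within groups was small beside the log2 change of 3.62 ± 0.16 (SE, adjusted p = 1.19e-05). Csf2, which encodes GM-CSF, had levels of 0.32, 0.30 and 0.06 with LPS, against -5.14, -3.86 and -3.52 without LPS, a log2 change of 4.40 ± 0.42 (SE, adjusted p = 0.000479). Csf3, which encodes G-CSF, had levels of 3.21, 3.05 and 3.33 with LPS, against -1.77, 0.19 and -0.04 without LPS, and changed by 3.74 ± 0.48 (SE, adjusted p = 0.00286). For Csf3 no-LPS array 1 lay well below the other no-LPS arrays, and with the slide block its adjusted p was 0.115. Among 7 tested TNF superfamily ligands, Tnfsf15 rose by 2.61 ± 0.17 (SE, adjusted p = 4.87e-05), with levels of -0.25, -0.33 and -0.82 with LPS against -3.30, -2.98 and -2.97 without LPS. Tnfsf10, the death ligand TRAIL, was above background on the LPS arrays only and was at least 2.39-fold higher (fitted log2 change 3.44, adjusted p = 0.0089). It did not pass with its signals raised to the floor (adjusted p = 0.431), with normexp background correction (0.0869) or with the slide block (0.0718).

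Chemokines rose unevenly. Cxcl10, a chemokine for activated T cells that both interferon and NF-kB control, had levels of 8.34, 8.17 and 8.10 with LPS, against 2.85, 3.72 and 3.81 without LPS. No array of one group came near the other, and the log2 change was 4.75 ± 0.24 (SE, adjusted p = 1.65e-05). Cxcl2, a neutrophil chemokine, had levels of 5.35, 4.91 and 4.90 with LPS, against 1.40, 2.96 and 2.47 without LPS, a log2 change of 2.78 ± 0.35 (SE, adjusted p = 0.00284). Of 10 tested CC chemokines, 3 rose, with a median log2 change of 0.69. Ccl5, which attracts T cells and monocytes, had levels of 6.88, 6.90 and 6.65 with LPS, against 3.51, 3.77 and 4.08 without LPS, and rose by 3.03 ± 0.18 (SE, adjusted p = 3.57e-05). Ccl4 had levels of 9.42, 9.37 and 9.40 with LPS, against 7.17, 7.92 and 8.03 without LPS, and rose by 1.69 ± 0.22 (SE, adjusted p = 0.00483). The monocyte chemokines Ccl7 and Ccl2 lay near the threshold. Ccl7 had levels of 1.13, 1.17 and 1.08 with LPS, against -2.60, -0.54 and -0.70 without LPS, with a log2 change of 2.41 ± 0.51 (SE, adjusted p = 0.0498). Ccl2 had levels of 6.18, 5.94 and 5.84 with LPS, against 1.92, 4.16 and 4.04 without LPS, and did not pass at 2.61 ± 0.58 (SE, adjusted p = 0.063). No-LPS array 1 was the lowest for both, and without it the log2 changes were 1.75 (adjusted p = 0.0531) and 1.88 (adjusted p = 0.0918). Ccl7 passed in 2 of the 12 fits that each left out 1 array, and with the slide block the adjusted p was 0.138 for Ccl4, 0.063 for Cxcl2 and 0.541 for Ccl7.

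Of 11 tested receptors for chemoattractants 4 rose. Ccrl2, an atypical receptor that presents chemerin, had levels of 1.24, 1.02 and 0.69 with LPS, against -1.42, -1.11 and -1.30 without LPS, a log2 change of 2.26 ± 0.20 (SE, adjusted p = 0.000414). C5ar1, the receptor for the complement fragment C5a, rose by 1.80 ± 0.23 (SE, adjusted p = 0.00311). Fpr2, a formyl peptide receptor, rose by 1.45 ± 0.14 (SE, adjusted p = 0.000627), but by 0.50 with normexp background correction, where it did not pass (adjusted p = 0.052). C3ar1, the receptor for C3a, rose by 0.92 ± 0.09 (SE, adjusted p = 0.000686), with 1.63, 1.86 and 1.71 with LPS against 0.84, 0.71 and 0.90 without LPS. C5ar1 had an adjusted p of 0.115 with the slide block.

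Interferon beta was the 1 member of the interferons and their receptors that passed, of 9 tested. Ifnb1 had levels of 1.12, 1.08 and 0.78 with LPS, against -4.08, -2.64 and -2.38 without LPS. The groups did not overlap, and the log2 change was 4.03 ± 0.44 (SE, adjusted p = 0.00108). Of 19 tested interferon regulatory factors, JAKs and STATs, 5 rose. Irf1 had levels of 4.80, 4.69 and 4.19 with LPS, against 0.60, 1.32 and 1.46 without LPS, a log2 change of 3.43 ± 0.26 (SE, adjusted p = 0.000125). Stat2 had levels of 3.70, 3.87 and 3.33 with LPS, against 0.91, 2.03 and 2.19 without LPS, a log2 change of 1.93 ± 0.31 (SE, adjusted p = 0.011). Irf9, the DNA-binding partner of Stat2, rose by 1.21 ± 0.24 (SE, adjusted p = 0.0374). Irf7, the factor that amplifies interferon production, had levels of 2.95, 3.33 and 3.24 with LPS, against -0.64, 2.60 and 2.63 without LPS. It did not pass (log2 change 1.64 ± 0.72, SE, adjusted p = 0.477), and without no-LPS array 1 its change was 0.56 (adjusted p = 0.626). Stat2 passed in 10 and Irf9 in 2 of the 12 fits without 1 array, and with the slide block the adjusted p was 0.201 for Stat2 and 0.359 for Irf9. Ifnb1 and Irf1 passed with the slide block (adjusted p 0.0438 and 0.00881).

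Of the 268 genes with a symbol that rose, 41 (15.3%) were in 6 lists of interferon-stimulated genes, whose no-LPS baseline was uneven. In these lists 86 members were tested, 41 rose, none fell and 82 had a positive change, with a median log2 change of 1.83. Of all 14941 tested features with a symbol, 1.79% rose. Of those 41 genes 12 passed with the slide block, where all 9 pro-inflammatory cytokines that rose also passed. Their levels without LPS were lowest on array 1. The median level of the 24 tested Mx, IFIT and other antiviral effectors was 3.87, 3.59 and 3.45 with LPS, against -0.61, 1.41 and 1.63 without LPS. That of the 9 tested immunity-related GTPases was 3.04, 3.01 and 2.47 with LPS, against -1.38, 0.16 and 0.56 without LPS. That of the 13 tested nucleic acid sensors was 2.97, 2.66 and 3.03 with LPS, against 0.61, 2.55 and 2.37 without LPS. The LPS arrays lay close together in each of these lists, and no-LPS array 1 lay well below the other no-LPS arrays. The gap was smaller for the guanylate-binding proteins, with medians of 0.46, -0.10 and -0.01 with LPS against -2.86, -2.46 and -2.63 without LPS. Without no-LPS array 1 the median log2 change was 1.72 in place of 2.20 for the Mx and IFIT list, 1.07 in place of 2.01 for the sensors, 0.67 in place of 1.24 for the OAS family and 2.44 in place of 2.96 for the guanylate-binding proteins. It was 1.01 in place of 1.40 for the Schlafen, TRIM and PARP list and moved little for the immunity-related GTPases, at 2.12 in place of 2.21. On the control-siRNA no-LPS arrays (arrays 1 and 2 on slide 1) the median level was -0.30, 0.42 and -0.26 for the Mx and IFIT list. It was -0.96, -0.84 and -1.17 for the immunity-related GTPases and 1.09, 1.10 and 0.99 for the sensors. In each of these lists no-LPS array 1 of the lincRNA-siRNA cells lay closer to that range than no-LPS arrays 2 and 3 did. Which of the no-LPS arrays departs was not tested, nor was the part of no-LPS array 1 in these values. Across all features that rose, no-LPS array 1 was the lowest no-LPS array in 61.4%, against 35.5% of all features, and LPS array 1 was the highest LPS array in 59.1%, against 39.5% of all features.

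**Figure D2:**
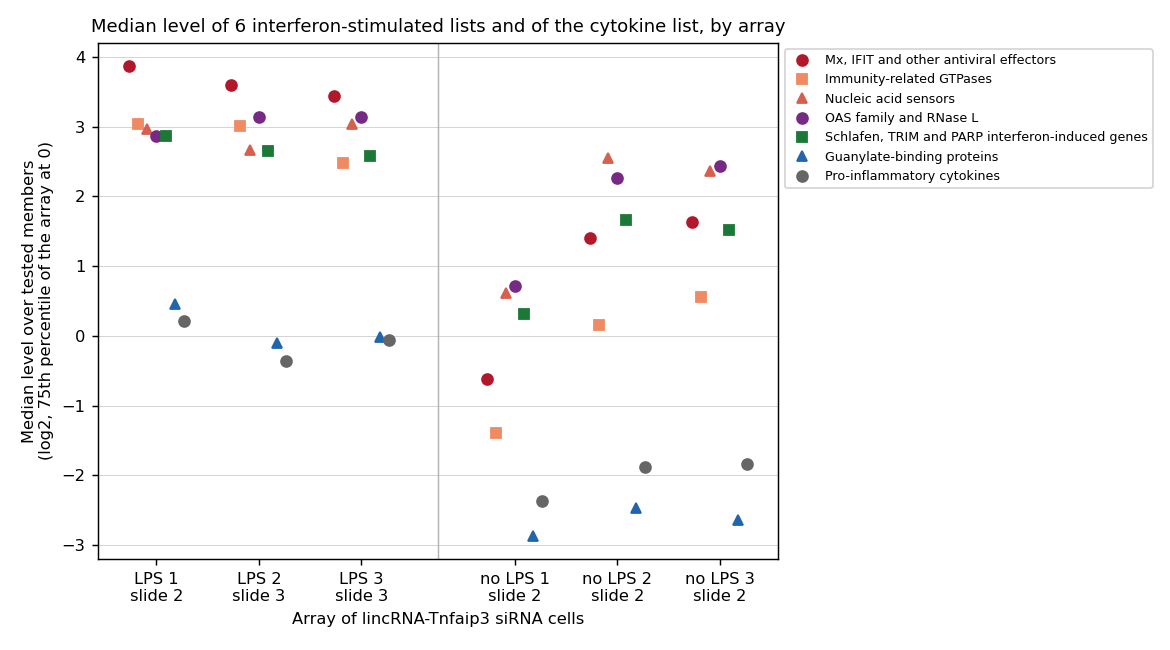
Median level over the tested members of 6 interferon-stimulated lists and of the pro-inflammatory cytokines on each array of lincRNA-Tnfaip3 siRNA cells, LPS arrays on the left and no-LPS arrays on the right, with the slide of each array. The vertical axis is log2 signal minus the 75th percentile of the array. The LPS arrays lie close together, and no-LPS array 1 is below no-LPS arrays 2 and 3 in each list, least so for the guanylate-binding proteins and the cytokines.

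Among the antiviral effectors, 12 of 24 tested rose. Rsad2, which encodes viperin, had levels of 5.39, 4.92 and 4.85 with LPS, against -0.58, 0.58 and 0.90 without LPS, a log2 change of 4.76 ± 0.42 (SE, adjusted p = 0.000365). Ifit1, which binds foreign RNA ends, had levels of 4.57, 4.01 and 3.70 with LPS, against -0.65, 0.02 and 0.40 without LPS, a log2 change of 4.17 ± 0.31 (SE, adjusted p = 0.000124). Both were clear of overlap and passed with the slide block (adjusted p 0.0163 and 0.00601). Mx1, a dynamin-like GTPase against influenza virus, had levels of 1.81, 1.47 and 0.86 with LPS, against -7.26, -3.35 and -2.95 without LPS. The fitted log2 change of 5.90 ± 1.08 (SE, adjusted p = 0.0231), which takes the unmeasured signal of no-LPS array 1 as it stands, was 3.57 with normexp background correction and 4.53 without no-LPS array 1 and passed in 9 of the 12 fits without 1 array. Mx2 had levels of 4.57, 4.37 and 4.33 with LPS, against -1.87, 0.52 and 0.66 without LPS, a log2 change of 4.65 ± 0.57 (SE, adjusted p = 0.00235). Cmpk2, a mitochondrial nucleotide kinase next to Rsad2, changed by 4.46 ± 0.55 (SE, adjusted p = 0.00231). Ifit3, whose near-identical copy Ifit3b can share its probe, changed by 4.34 ± 0.44 (SE, adjusted p = 0.000646). The slide block left Ifit3 past the threshold (adjusted p = 0.0359) and not Mx1 (0.256), Mx2 (0.0838) or Cmpk2 (0.056).

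The guanylate-binding proteins, GTPases that attack the membranes of intracellular pathogens, had 5 of 8 tested members that rose. Gbp2b had levels of 0.68, -0.08 and -0.16 with LPS, against -5.92, -4.32 and -4.26 without LPS, a log2 change of 4.98 ± 0.58 (SE, adjusted p = 0.00159). Gbp2 had levels of 1.30, 0.76 and 0.68 with LPS, against -4.12, -3.03 and -2.74 without LPS, a log2 change of 4.21 ± 0.58 (SE, adjusted p = 0.00453). Gbp5 had levels of 1.55, 1.42 and 0.58 with LPS, against -1.71, -1.82 and -3.86 without LPS, a log2 change of 3.65 ± 0.59 (SE, adjusted p = 0.0117). For Gbp5 the low no-LPS array was array 3 and not array 1, and it passed in 10 of the 12 fits without 1 array. Gbp7 and Gbp3 rose by 3.10 ± 0.41 and 2.82 ± 0.35 (SE, adjusted p 0.00361 and 0.00235). The related immunity-related GTPases had 6 of 9 tested members that rose, led by Irgm2 at 3.44 ± 0.47 (SE, adjusted p = 0.00456). Irgm2 had levels of 3.59, 3.50 and 3.12 with LPS, against -1.38, 0.47 and 0.80 without LPS. Igtp, Irgm1, Ifi47 and Tgtp2 rose by 2.95, 2.93, 2.86 and 2.21 (adjusted p 0.0217, 0.0138, 0.00282 and 0.00266). Igtp and Irgm1 each passed in 9 of the 12 fits without 1 array. Of these 10 genes Gbp2b (adjusted p = 0.0428) and Tgtp2 (adjusted p = 0.0349) passed with the slide block.

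Of 13 tested nucleic acid sensors 4 rose. Ifih1, which encodes the RNA sensor MDA5, had levels of 4.80, 4.33 and 3.94 with LPS, against -1.16, 0.86 and 1.13 without LPS, a log2 change of 4.08 ± 0.52 (SE, adjusted p = 0.00285). Ifi209, of the DNA-binding PYHIN family, had levels of 0.23, -0.27 and -0.56 with LPS, against -6.31, -3.81 and -3.08 without LPS, a log2 change of 4.20 ± 0.80 (SE, adjusted p = 0.0281). Ifi204 of the same family rose by 2.34 ± 0.34 (SE, adjusted p = 0.0058). Ifi211, below background without LPS, was at least 4.66-fold higher (fitted log2 change 3.00, adjusted p = 0.0203). Ifi211 did not pass with its signals raised to the floor (adjusted p = 0.0623) or with normexp background correction (0.0672). The PYHIN genes are close paralogs whose probes can share transcripts. Ifi203 did not pass at 3.10 ± 0.69 (SE, adjusted p = 0.0598). Without no-LPS array 1 it passed at 2.12 (adjusted p = 0.0152), and Ifi211 did not (adjusted p = 0.0544). None of the 4 that rose passed with the slide block, where the adjusted p was 0.0587 for Ifih1, 0.29 for Ifi209, 0.104 for Ifi204 and 0.1 for Ifi211. Ifi209 passed in 8 and Ifi211 in 9 of the 12 fits without 1 array.

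Only Oasl1 rose of 9 tested members of the OAS family and RNase L. It had levels of 8.51, 8.57 and 8.17 with LPS, against 4.93, 5.84 and 6.05 without LPS, a log2 change of 2.81 ± 0.27 (SE, adjusted p = 0.000479, and 0.0349 with the slide block). Oasl2 had levels of 2.79, 2.49 and 2.79 with LPS, against -2.66, 1.20 and 1.43 without LPS, and a change of 2.70 ± 0.90 that did not pass (SE, adjusted p = 0.285). In the Schlafen, TRIM and PARP list, 13 of 23 tested rose. Trim21, an antibody-binding ubiquitin ligase, had levels of 1.74, 1.38 and 0.87 with LPS, against -1.84, -1.29 and -0.89 without LPS, a log2 change of 2.67 ± 0.26 (SE, adjusted p = 0.000515, and 0.0135 with the slide block). Parp14 had levels of 5.42, 5.16 and 4.98 with LPS, against 0.86, 3.04 and 3.10 without LPS, a log2 change of 2.85 ± 0.50 (SE, adjusted p = 0.0187). Trim34a rose by 2.88 ± 0.37 (SE, adjusted p = 0.00282). Trim30d and Trim30a did not pass, with changes of 2.90 and 2.66 (adjusted p 0.421 and 0.455). Their no-LPS array 1 levels were -6.39 and -5.44, and without that array the changes were 1.27 and 1.09. The adjusted p with the slide block was 0.234 for Parp14 and 0.0751 for Trim34a, and Parp14 passed in 9 of the 12 fits without 1 array.

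The promoters of 5 of these genes, picked as examples and not by a rule, show the motif classes tied to the pathways above. Matches of the AP-1 motif, counted below, are not marked in them. The windows are the 250 bases before the gene start from RefSeq on build GRCm38.p6, 5′ to 3′ on the strand of the gene, and capitals mark matches of the interferon-stimulated response element core, GAAA and a second GAAA with 2 bases between, or of the kB motif, GGGA and TTCC with 2 bases between, on either strand.
Cxcl10 (chr5:92348890-92349139, minus strand): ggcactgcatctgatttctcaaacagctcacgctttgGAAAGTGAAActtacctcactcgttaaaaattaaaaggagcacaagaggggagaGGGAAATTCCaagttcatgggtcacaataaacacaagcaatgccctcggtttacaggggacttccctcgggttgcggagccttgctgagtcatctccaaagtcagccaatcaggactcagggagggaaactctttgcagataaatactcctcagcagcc
Ifit1 (chr19:34640639-34640888, plus strand): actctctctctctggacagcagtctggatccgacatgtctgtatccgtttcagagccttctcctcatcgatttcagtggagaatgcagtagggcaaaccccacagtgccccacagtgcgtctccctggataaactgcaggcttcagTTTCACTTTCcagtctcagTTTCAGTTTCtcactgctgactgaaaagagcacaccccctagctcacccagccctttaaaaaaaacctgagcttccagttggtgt
Rsad2 (chr12:26456453-26456702, minus strand): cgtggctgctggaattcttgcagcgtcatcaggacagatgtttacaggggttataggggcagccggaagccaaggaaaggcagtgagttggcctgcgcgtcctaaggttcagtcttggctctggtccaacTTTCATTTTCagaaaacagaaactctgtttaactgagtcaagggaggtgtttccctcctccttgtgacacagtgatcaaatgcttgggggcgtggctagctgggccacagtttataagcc
Ifnb1 (chr4:88522795-88523044, minus strand): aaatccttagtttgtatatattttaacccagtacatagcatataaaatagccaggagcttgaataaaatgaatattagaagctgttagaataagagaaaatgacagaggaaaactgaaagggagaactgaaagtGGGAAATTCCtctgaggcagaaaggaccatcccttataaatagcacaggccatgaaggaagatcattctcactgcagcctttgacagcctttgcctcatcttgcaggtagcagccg
Il6 (chr5:30012864-30013113, plus strand): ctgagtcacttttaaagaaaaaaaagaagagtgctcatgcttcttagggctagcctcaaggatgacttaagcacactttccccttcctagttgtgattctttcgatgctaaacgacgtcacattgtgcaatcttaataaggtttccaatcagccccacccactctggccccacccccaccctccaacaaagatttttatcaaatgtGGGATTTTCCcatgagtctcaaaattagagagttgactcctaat

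Cxcl10, with a log2 change of 4.75, held 1 match of each motif, whose first base lay 213 bases (response element core) and 159 bases (kB) before the gene start. Ifit1 held 2 response element cores, at 104 and 85 bases, and Rsad2 held 1 at 120 bases. Ifnb1 and Il6 each held 1 kB match, at 116 and 44 bases. Among all genes with a symbol that rose, 208 of 268 matched the promoter table, with 270 windows. The response element core occurred in 28 of these windows (10.4%), in 1 of 71 windows of genes that fell (1.41%), and in 402 of 14744 windows of tested genes (2.73%). The kB motif occurred in 13 windows of genes that rose (4.81%), in 1 window of genes that fell (1.41%), and in 178 windows of tested genes (1.21%). In all 32851 windows of the table the shares were 2.98% and 1.21%. The AP-1 motif TGANTCA and the STAT motif, TTC and GAA with 3 bases between, were also searched on both strands. They occurred in 29 and 26 windows of genes that rose (10.7% and 9.63%). The counts were 1 and 3 windows of genes that fell (1.41% and 4.23%), and 752 and 927 windows of tested genes (5.1% and 6.29%). A gene with several starts gives several windows, and no overlap of the response element core with a STAT match was found in windows of genes that rose. These are matches of letters in a window and carry no measurement of binding.

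Inhibitors of NF-kB and of cytokine signalling rose with the cytokines. Of 19 tested IkB proteins and feedback regulators 6 rose. Tnfaip3, which encodes the ubiquitin-editing inhibitor A20 and gives the lincRNA its name, had levels of 4.03, 3.91 and 3.69 with LPS, against 3.02, 2.34 and 2.38 without LPS. The groups did not overlap and the log2 change was 1.30 ± 0.20 (SE, adjusted p = 0.00941), but it did not pass with the slide block (1.46, adjusted p = 0.126). Tnfaip2 had levels of 5.71, 5.45 and 5.86 with LPS, against 3.66, 3.85 and 3.64 without LPS, a log2 change of 1.95 ± 0.19 (SE, adjusted p = 0.000611). Nfkbiz, the IkB-zeta protein that is needed for Il6 transcription, had levels of 0.66, 0.76 and 0.72 with LPS, against -0.29, -0.70 and -0.59 without LPS, a log2 change of 1.24 ± 0.12 (SE, adjusted p = 0.000646). Nfkbie had a change of 1.08 ± 0.28 that did not pass (SE, adjusted p = 0.124). Of the 5 NF-kB subunit genes only Nfkb2 rose, by 0.93 ± 0.14 (SE, adjusted p = 0.00843, and 0.175 with the slide block). Nfkb1 had a change of 0.85 (adjusted p = 0.136) and Relb one of 0.42 (adjusted p = 0.443).

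Of 11 tested SOCS and cytokine receptor feedback genes 3 rose: Cish, Socs1 and Socs3. Cish blocks STAT5-activating receptors. Its levels were 1.30, 1.38 and 0.87 with LPS, against -7.08, -3.84 and -3.67 without LPS, and its fitted log2 change of 6.05 ± 0.83 (SE, adjusted p = 0.00431) was 4.94 without no-LPS array 1 and 3.36 with normexp background correction. Socs1, an inhibitor of JAK kinases, had levels of 1.65, 1.76 and 1.45 with LPS, against -2.53, -1.36 and -1.28 without LPS, a log2 change of 3.34 ± 0.32 (SE, adjusted p = 0.00051). Socs3, an inhibitor of interleukin 6 signalling, had levels of 6.13, 6.25 and 5.99 with LPS, against 4.73, 4.22 and 4.21 without LPS, a log2 change of 1.74 ± 0.16 (SE, adjusted p = 0.000479). Usp18, which removes ISG15 and dampens the interferon receptor, had levels of 5.27, 5.09 and 5.02 with LPS, against -0.26, 3.18 and 3.43 without LPS. It did not pass (3.01 ± 0.79, SE, adjusted p = 0.127), and without no-LPS array 1 it passed with a smaller change of 1.82 (adjusted p = 0.0116). The adjusted p with the slide block was 0.13 for Cish, 0.0385 for Socs1 and 0.0349 for Socs3.

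At the receptor end of the pathway the genes that changed were lower. Of 12 tested genes of the LPS receptor complex and Toll-like receptors none rose and 2 fell, beside 1.48% and 0.339% of all features. Tlr13, the mouse sensor of bacterial ribosomal RNA, had levels of 2.81, 2.53 and 2.24 with LPS, against 3.78, 3.37 and 3.50 without LPS, a log2 change of -1.02 ± 0.16 (SE, adjusted p = 0.00934). Tlr4 itself had levels of 0.86, 0.73 and 0.52 with LPS, against 1.34, 1.40 and 1.32 without LPS, a log2 change of -0.65 ± 0.12 (SE, adjusted p = 0.0295). For both genes LPS array 1 lay nearest to the no-LPS arrays, and neither passed with the slide block (-0.74 and -0.49, adjusted p 0.298 and 0.513). Tlr4 passed in 5 of the 12 fits without 1 array. Cd14, the LPS co-receptor, did not pass at 0.65 ± 0.25 (SE, adjusted p = 0.403). Of 27 tested adaptors, kinases and ubiquitin ligases 5 rose, with a median log2 change of 0.09. Peli1, a ubiquitin ligase of the TRIF branch, rose by 1.97 ± 0.18 (SE, adjusted p = 0.000479), with levels of 5.41, 5.46 and 4.91 with LPS against 3.29, 3.25 and 3.33 without LPS. Irak3, which inhibits IRAK signalling, rose by 0.74 ± 0.09 (SE, adjusted p = 0.00273). Ikbke, Traf1 and Traf5 rose by 1.33, 1.28 and 0.93 (adjusted p 0.0114, 0.0235 and 0.0267), and they passed in 10, 7 and 7 of the 12 fits without 1 array. Peli1 and Irak3 passed with the slide block (adjusted p 0.0233 and 0.0356) and the other 3 did not (0.274, 0.22 and 0.29). With the arrays centred on their medians Irak3, Ikbke, Traf1, Traf5 and Tlr4 did not pass (adjusted p 0.117, 0.0601, 0.0984, 0.105 and 0.0751).

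**Figure D3:**
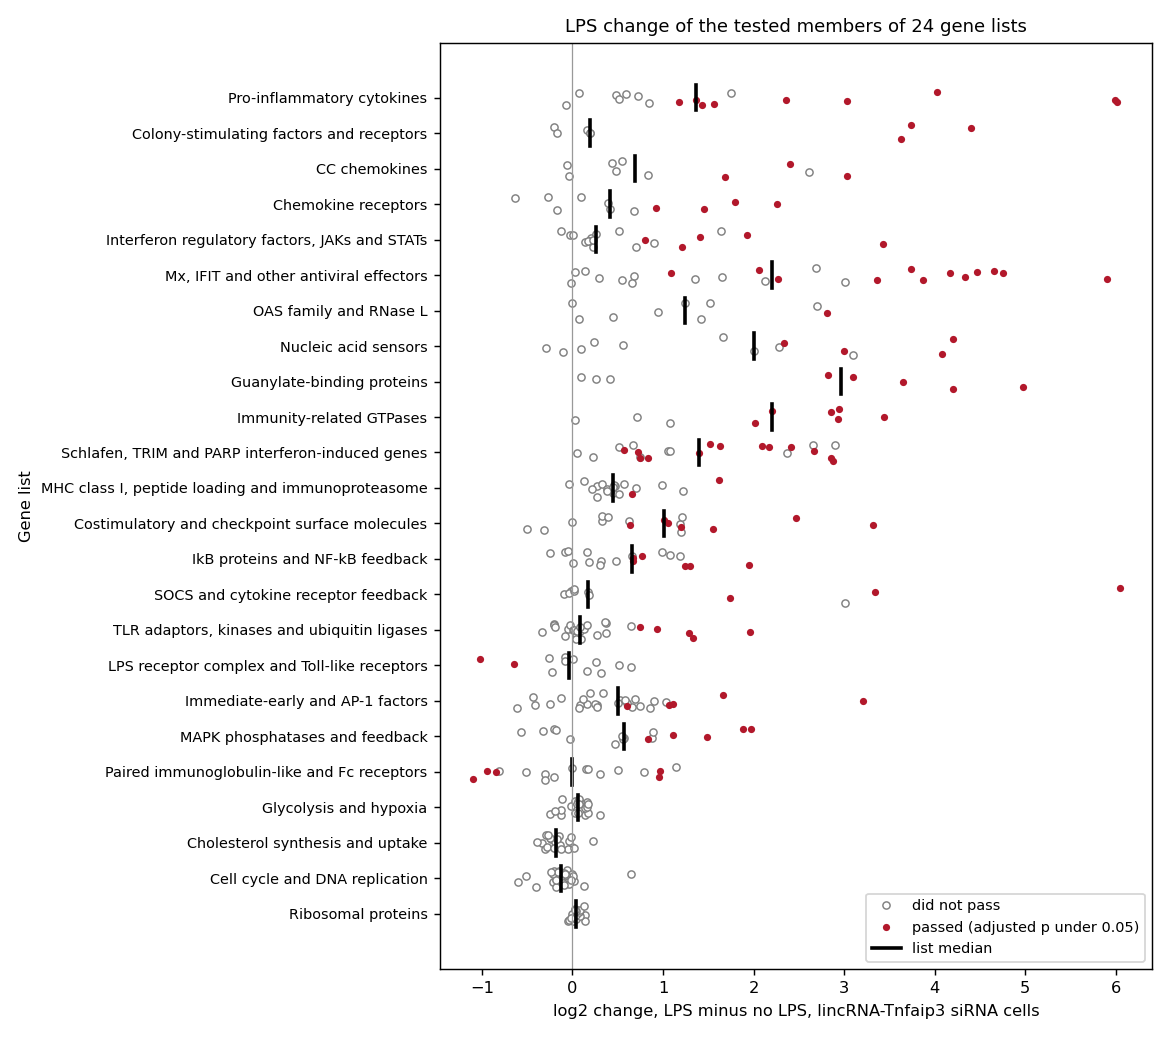
Log2 change, LPS minus no LPS, of each tested member of 24 of the 54 gene lists in lincRNA-Tnfaip3 siRNA cells. Filled points passed (adjusted p under 0.05), open points did not, and the black bar is the median of the list. Guanylate-binding proteins have the highest median shown (2.96), and glycolysis, cholesterol synthesis, cell cycle and ribosomal protein genes lie near 0 with no filled point.

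Immediate-early and MAP kinase feedback genes rose in part. Of 29 tested immediate-early and AP-1 genes 5 rose. Batf2, an interferon-induced partner of AP-1 factors, had levels of 3.04, 2.85 and 2.92 with LPS, against -0.97, 0.16 and -0.01 without LPS, a log2 change of 3.21 ± 0.29 (SE, adjusted p = 0.000414). Atf3, a repressor of cytokine genes, had levels of 4.19, 4.00 and 3.92 with LPS, against 2.49, 2.29 and 2.35 without LPS, a log2 change of 1.66 ± 0.13 (SE, adjusted p = 0.000164). Junb and Maff rose by 1.11 ± 0.13 and 1.07 ± 0.10 (SE, adjusted p 0.00135 and 0.000414). Fosb did not pass, with a change of 1.03 (adjusted p = 0.38). Of 16 tested MAP kinase phosphatases and feedback genes 5 rose. Rasgef1b, an exchange factor for Ras-family GTPases, rose by 1.97 ± 0.19 (SE, adjusted p = 0.000566), the stress-response genes Gadd45a and Gadd45b by 1.89 ± 0.19 and 1.11 ± 0.13 (SE, adjusted p 0.00066 and 0.00153), and the ERK phosphatase Dusp5 by 1.48 ± 0.14 (SE, adjusted p = 0.000514). Dusp5 showed tight groups, with -1.06, -1.08 and -1.03 with LPS against -2.56, -2.62 and -2.45 without LPS. With the slide block Batf2, Atf3, Junb, Maff, Rasgef1b, Gadd45a and Dusp5 passed, and Gadd45b did not (adjusted p = 0.0504). Regulators of cytokine mRNA decay split: Zfp36, which encodes tristetraprolin, rose by 0.83 ± 0.09 (SE, adjusted p = 0.0011, and 0.051 with median centring), and its relative Zfp36l2 fell by 0.65 ± 0.13 (SE, adjusted p = 0.0423). Zfp36l2 passed in 1 of the 12 fits without 1 array and not with the slide block (adjusted p = 0.663).

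Among effector and surface lists, 20% of the tested antimicrobial, 14.3% of the prostaglandin and 27.3% of the matrix protease genes rose. In the costimulatory list 41.2% rose, in the scavenger list 21.4%, in MHC class I 10% and in MHC class II none. Of all features 1.48% rose, and the lists were chosen with earlier results of these data known. Of 15 tested antimicrobial, nitric oxide and acute-phase effectors 3 rose. Slpi, a secreted protease inhibitor, had levels of 5.89, 5.85 and 5.60 with LPS, against 3.49, 4.08 and 4.26 without LPS, a log2 change of 1.84 ± 0.24 (SE, adjusted p = 0.00287). Acod1, the enzyme that makes itaconate from a Krebs cycle intermediate, had levels of 8.85, 8.86 and 8.67 with LPS, against 7.58, 6.76 and 6.99 without LPS, a log2 change of 1.68 ± 0.19 (SE, adjusted p = 0.00145). It was the 1 gene of 15 in the Krebs cycle and itaconate list that passed. Nos2, the inducible nitric oxide synthase, had levels of 5.80, 5.40 and 5.63 with LPS, against 3.82, 4.70 and 4.50 without LPS, a log2 change of 1.28 ± 0.24 (SE, adjusted p = 0.029). Nos2 passed in 6 of the 12 fits without 1 array and its adjusted p was 0.0663 without no-LPS array 1. Saa3, an acute-phase protein, did not pass at 2.12 ± 0.48 (SE, adjusted p = 0.0652). With the slide block the adjusted p was 0.0587 for Slpi, 0.0587 for Acod1 and 0.235 for Nos2.

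Of 14 prostaglandin and eicosanoid genes 2 rose. Ptgs2, the inducible cyclooxygenase, had levels of 4.61, 4.25 and 4.17 with LPS, against 1.82, 2.35 and 2.16 without LPS, a log2 change of 2.23 ± 0.18 (SE, adjusted p = 0.000164, and 0.00556 with the slide block). Ptger2, a prostaglandin E receptor below background without LPS, was at least 2.42-fold higher. Its fitted log2 change was 2.48 (adjusted p = 0.0189, and 0.184 with the slide block), and it passed in 9 of the 12 fits without 1 array. It did not pass with its signals raised to the floor (adjusted p = 0.101) or with normexp background correction, where its log2 change was 0.50 (adjusted p = 0.127). Tbxas1, thromboxane synthase, had LPS arrays that split by slide: its levels were -0.47, -3.00 and -3.31 with LPS, against -3.46, -3.22 and -3.19 without LPS. LPS array 1 alone stood high, LPS arrays 2 and 3 lay within 0.29 of the no-LPS mean, and the log2 change of 1.03 did not pass (adjusted p = 0.674), whereas with the slide block it was 2.82 (adjusted p = 0.0288). In the matrix protease and plasminogen list, 3 of 11 tested rose. F3, tissue factor, had levels of -0.76, -1.10 and -0.93 with LPS, against -4.23, -3.58 and -4.86 without LPS, a log2 change of 3.29 ± 0.43 (SE, adjusted p = 0.00321). Plaur, the urokinase receptor, rose by 1.50 ± 0.16 (SE, adjusted p = 0.0011). With the slide block F3 and Plaur did not pass (adjusted p 0.0973 and 0.0576).

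Of 17 tested costimulatory and checkpoint molecules 7 rose. Cd40, the receptor for T cell help, had levels of 2.02, 1.77 and 1.40 with LPS, against -0.74, -0.74 and -0.71 without LPS, a log2 change of 2.46 ± 0.15 (SE, adjusted p = 3.79e-05, and 0.00209 with the slide block). Cd69, an early activation marker below background without LPS, was at least 4.27-fold higher. Its fitted log2 change was 3.32 (adjusted p = 0.0026, and 0.0509 with its signals raised to the floor). Icosl rose by 1.55 ± 0.20 (SE, adjusted p = 0.00286). Cd86 did not pass at 1.21 (adjusted p = 0.162). Of 20 tested genes of MHC class I and peptide loading, Tap1 rose by 1.62 ± 0.27 and Tapbp by 0.66 ± 0.14 (SE, adjusted p 0.0144 and 0.0449), and they passed in 10 and 1 of the 12 fits without 1 array. None of 7 tested MHC class II genes passed. Among scavenger and C-type lectin receptors 3 of 14 tested rose. Olr1, a receptor for oxidised lipoprotein, had levels of -1.66, -2.06 and -1.98 with LPS, against -4.43, -5.12 and -5.46 without LPS, a log2 change of 3.10 ± 0.32 (SE, adjusted p = 0.000737). Clec4e, the mycobacterial glycolipid receptor Mincle, rose by 1.48 ± 0.16 (SE, adjusted p = 0.000917) and Clec2d, a ligand of NK cell receptors, by 1.80 ± 0.19 (SE, adjusted p = 0.000986). These 3 lectin genes passed with the slide block (adjusted p 0.0191, 0.0252 and 0.043), and Cd69, Icosl, Tap1 and Tapbp did not (0.0576, 0.0511, 0.235 and 0.63).

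Of 15 inflammasome genes 4 rose. Nod2, a sensor of bacterial cell wall fragments, had levels of 0.79, 1.06 and 0.91 with LPS, against -1.37, -1.23 and -1.12 without LPS, a log2 change of 2.16 ± 0.11 (SE, adjusted p = 1.65e-05). Nlrp3, whose transcription is the priming step of its inflammasome, had levels of 0.87, 1.17 and 1.42 with LPS, against -0.52, -0.63 and -0.68 without LPS, a log2 change of 1.76 ± 0.13 (SE, adjusted p = 0.000133). Casp4, the caspase that binds cytosolic LPS, rose by 0.87 ± 0.13 (SE, adjusted p = 0.00879), and Il18bp, a soluble inhibitor of Il18, by 0.63 ± 0.13 (SE, adjusted p = 0.0371). Of 21 tested cell death and survival genes 5 rose, both inducers and inhibitors of apoptosis. The death receptor Fas rose by 1.68 ± 0.19 (SE, adjusted p = 0.0013) and the pro-apoptotic Bcl2l11 by 1.27 ± 0.12 (SE, adjusted p = 0.000508). The caspase inhibitor Cflar rose by 0.97 ± 0.11 (SE, adjusted p = 0.00167) and the anti-apoptotic Bcl2l1 by 0.83 ± 0.15 (SE, adjusted p = 0.0221). With the slide block Nod2, Nlrp3, Fas, Bcl2l11 and Cflar passed (adjusted p 0.00326, 0.00641, 0.00881, 0.04 and 0.0301), and Casp4, Il18bp and Bcl2l1 did not (0.0576, 0.316 and 0.195). Il18bp passed in 3 and Bcl2l1 in 8 of the 12 fits without 1 array. Among receptors for metabolites, the fatty acid receptor Gpr84 rose by 1.59 ± 0.25 (SE, adjusted p = 0.0099, and 0.175 with the slide block) and the hydroxycarboxylic acid receptor Hcar2 by 1.11 ± 0.14 (SE, adjusted p = 0.00235, and 0.0418 with the slide block). Gpr183, an oxysterol receptor, did not pass at -1.57 ± 0.35 (SE, adjusted p = 0.0608).

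The genes that fell changed less than those that rose. Their median log2 change was -0.68, with array medians of -0.60, -0.73 and -0.74, and 11 of 81 (0.046% of the features tested) fell at least 2-fold. C130050O18Rik had levels of -0.57, -0.63 and -0.51 with LPS, against 1.24, 0.96 and 0.81 without LPS. It had the lowest adjusted p among the 15 genes with the lowest changes, at -1.57 ± 0.13 (SE, adjusted p = 0.000176), and passed with the slide block (adjusted p = 0.0184). Prtg, a cell adhesion protein of the immunoglobulin superfamily, had levels of -3.66, -3.47 and -3.63 with LPS, against -1.50, -1.78 and -2.34 without LPS, a log2 change of -1.71 ± 0.22 (SE, adjusted p = 0.00311). Arl11, an Arf-like GTPase, had levels of -1.99, -2.00 and -1.66 with LPS, against -0.95, -0.92 and -1.11 without LPS. It changed by -0.89 ± 0.11 (SE, adjusted p = 0.0026) and passed with the slide block (adjusted p = 0.0438). Gpr176, an orphan receptor, had levels of -1.72, -1.71 and -2.07 with LPS, against -0.22, -0.85 and -0.76 without LPS, a log2 change of -1.22 ± 0.18 (SE, adjusted p = 0.00638). Tmem51 changed by -1.13 ± 0.16 (SE, adjusted p = 0.0055). With the slide block Prtg, Gpr176 and Tmem51 had adjusted p of 0.0949, 0.209 and 0.0906.

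Tlr13, described above, was also among the 15 genes with the lowest changes, and the rest lay nearer to the threshold. Susd3, Treml1, Megf9, Snx24, Fam78a and Slc9b1 changed by -0.94, -1.06, -0.95, -0.99, -0.96 and -1.32 (adjusted p 0.0356, 0.0319, 0.0474, 0.0249, 0.0251 and 0.0407). They passed in 3, 4, 1, 7, 8 and 2 of the 12 fits without 1 array, and none passed with the slide block. A second probe changed by 0.30 for Fam78a and by 0.06 for Slc9b1, so the probes of these genes disagreed. Slc9b1, a sodium and proton exchanger, had levels of -2.50, -2.59 and -2.64 with LPS, against -1.00, -1.92 and -0.84 without LPS. The remaining 3 of the 15, Pira2, Pirb and Gm14548, belong with Pira11 to the paired immunoglobulin-like receptors, surface receptors for MHC class I that include activating (PIR-A) and inhibitory (PIR-B) members. Pira2, Pira11, Pirb and Gm14548 fell by 1.10, 0.84, 0.94 and 0.94 on the log2 scale (adjusted p 0.0295, 0.0282, 0.0495 and 0.0154). Gm14548 had levels of -0.69, -0.90 and -0.89 with LPS, against 0.49, -0.16 and -0.0021 without LPS. These genes lie together on chromosome 7 and are near-identical copies, so their probes can read each other's transcripts and they are not separate observations. They passed in 6, 6, 1 and 10 of the 12 fits without 1 array and none passed with the slide block (adjusted p 0.586, 0.611, 0.782 and 0.38). The inhibitory receptors Lilr4b and Lilrb4a, in the same list, rose by 0.97 and 0.95 (adjusted p 0.0398 and 0.0169), in 3 and 9 of those 12 fits and not with the slide block (0.175 and 0.255). Siglec1, a sialic acid-binding receptor, did not pass at 1.14 (adjusted p = 0.683).

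**Figure D4:**
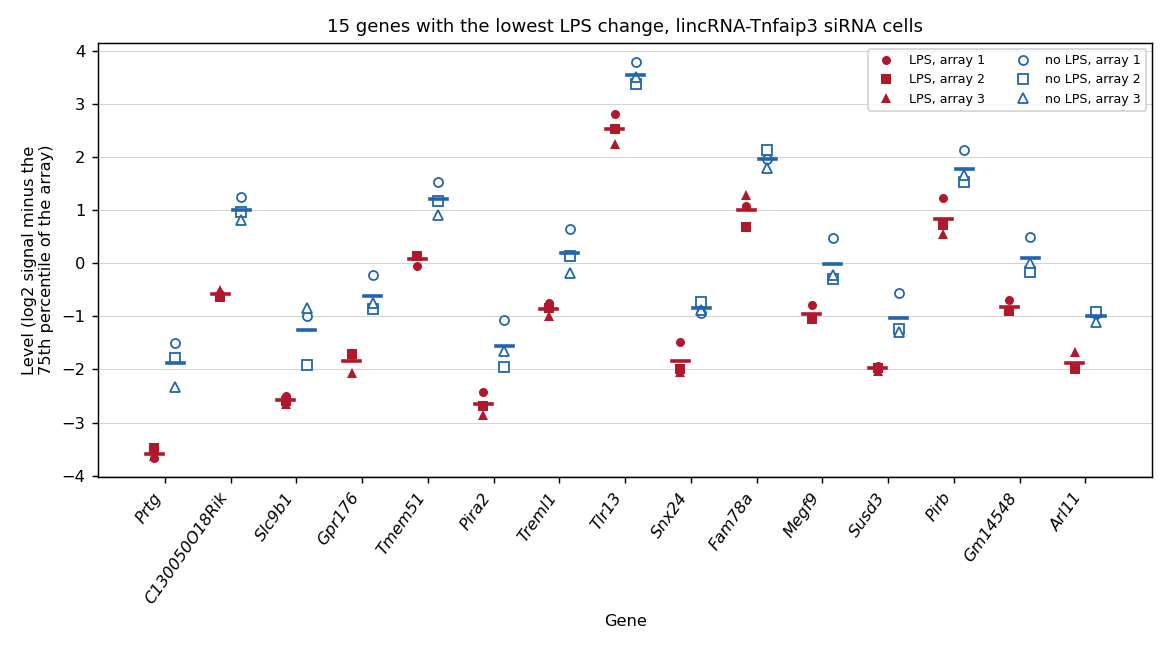
Levels of the 15 genes with the lowest log2 change that passed, on each LPS array (filled) and each no-LPS array (open) of lincRNA-Tnfaip3 siRNA cells. The vertical axis is log2 signal minus the 75th percentile of the array and the short bars are the means of 3 arrays. The genes were chosen among those without overlap between the groups, so by that choice the LPS arrays lie below the no-LPS arrays for each of the 15. The distances are smaller than for the genes that rose.

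Single genes passed in a few metabolic and stress lists. Abcg1, a cholesterol exporter, fell by 0.62 ± 0.12 on the log2 scale (SE, adjusted p = 0.0295), with 2.09, 2.18 and 2.06 with LPS against 2.87, 2.58 and 2.75 without LPS, the 1 call among 18 LXR targets and lipid handling genes. Dbp, an output factor of the circadian clock, fell by 0.71 ± 0.13 (SE, adjusted p = 0.0192), the 1 call among 12 tested clock genes, and its neighbour in that list Usp2 did not pass at -1.29 (adjusted p = 0.238). Of 14 tested p53 targets Cdkn1a, a cyclin-dependent kinase inhibitor, rose by 0.56 and Trp53inp1 fell by 0.64 (adjusted p 0.0273 and 0.0448), and other probes of these 2 genes changed by -0.17 to 0.24 and by 0.17. Of 20 genes of the unfolded protein response Ppp1r15a rose by 0.56 (adjusted p = 0.0394). Abcg1, Dbp, Cdkn1a, Trp53inp1 and Ppp1r15a passed in 6, 8, 4, 2 and 0 of the 12 fits without 1 array, and none passed with the slide block (adjusted p 0.32, 0.203, 0.471, 0.392 and 0.511). Fabp4, a fatty acid carrier, did not pass at 1.60 ± 0.56 (SE, adjusted p = 0.309). In 14 lists besides MHC class II and complement none of the tested members passed. They were glycolysis (21 tested, median log2 change 0.06), cholesterol synthesis (20, -0.18), cell cycle (31, -0.12), NRF2 and glutathione (14, 0.12), iron and zinc (13, 0.16), heat shock (9, 0.09), alternative activation (7, -0.05), osteoclast genes (11, 0.27), macrophage identity factors (12, 0.07), RNA interference machinery (12, -0.18), ribosomal proteins (19, 0.04), housekeeping controls (13, 0.05), markers of other cell types (19, 0.16) and neutrophil and dendritic cell markers (9, 0.46). For the RNA interference genes none of 12 changes was positive, the lowest being -0.42 and the highest -0.04.

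Long intergenic RNA regions are transcripts outside protein-coding genes, which the array annotation names by position. Of 3534 tested lincRNA regions 30 rose (0.849%) and 3 fell (0.0849%), beside 268 (1.79%) and 70 (0.469%) of 14941 features with a gene symbol. That difference in share was not tested. The probes of the 3 highest and the 3 lowest regions, which show which transcript stretch each value reads, are given 5′ to 3′ with their mm9 position from the array annotation.
chr16:84708738-84708797, plus strand: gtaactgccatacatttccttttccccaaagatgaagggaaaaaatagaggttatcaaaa
chr2:128250182-128250241, plus strand: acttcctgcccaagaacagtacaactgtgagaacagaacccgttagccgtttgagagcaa
chr1:85305009-85305068, minus strand: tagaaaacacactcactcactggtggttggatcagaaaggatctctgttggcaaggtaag
chr1:137503113-137503172, minus strand: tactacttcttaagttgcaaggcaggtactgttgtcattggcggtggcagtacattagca
chr7:16634351-16634410, plus strand: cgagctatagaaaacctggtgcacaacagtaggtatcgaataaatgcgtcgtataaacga
chr11:95629641-95629700, minus strand: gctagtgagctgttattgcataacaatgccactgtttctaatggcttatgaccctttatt

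The region chr16:84708695-84708806 on the plus strand had levels of -0.46, -0.29 and -0.89 with LPS, against -2.95, -3.48 and -3.99 without LPS. The groups did not overlap, and the log2 change was 2.93 ± 0.28 (SE, adjusted p = 0.000479, and 0.0322 with the slide block). The region chr2:128249388-128250301 had levels of -1.24, -1.35 and -1.36 with LPS, against -4.11, -3.91 and -4.17 without LPS. Both its groups were tight, with a log2 change of 2.75 ± 0.37 (SE, adjusted p = 0.0039, and 0.00126 with the slide block). The region chr1:85304494-85305390 on the minus strand had levels of 0.29, 0.12 and 0.32 with LPS, against -3.70, -1.74 and -2.01 without LPS, a log2 change of 2.73 ± 0.49 (SE, adjusted p = 0.0203, and 0.321 with the slide block). It showed the low no-LPS array 1 seen in the interferon-stimulated lists and passed in 9 of the 12 fits without 1 array. Of the regions that fell, chr7:16633756-16634410 was the most even, with -0.62, -0.64 and -0.63 with LPS against 0.32, 0.44 and 0.35 without LPS. Its log2 change was -1.00 ± 0.09 (SE, adjusted p = 0.000479, and 0.0322 with the slide block). The regions chr1:137503023-137625604 and chr11:95627874-95640824, both on the minus strand, changed by -1.06 ± 0.18 and -0.73 ± 0.14 (SE, adjusted p 0.0156 and 0.0304). They passed in 9 and 5 of the 12 fits without 1 array and not with the slide block (adjusted p 0.213 and 0.526).

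The LPS arrays lay on 2 slides, and the features that passed were chosen on these same arrays, so the sign of their change on either slide was fixed by that choice and only the sizes are described. Of 352 features that rose and had values on both slides, 258 had the larger change on slide 2, with medians of 1.60 on slide 2 and 1.48 on slide 3. Of 81 features that fell, 21 had the larger drop on slide 2, with medians of -0.60 on slide 2 and -0.73 on slide 3. Slide and replicate number cannot be told apart among the LPS arrays, since array 1 is the only one on slide 2.

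**Figure D5:**
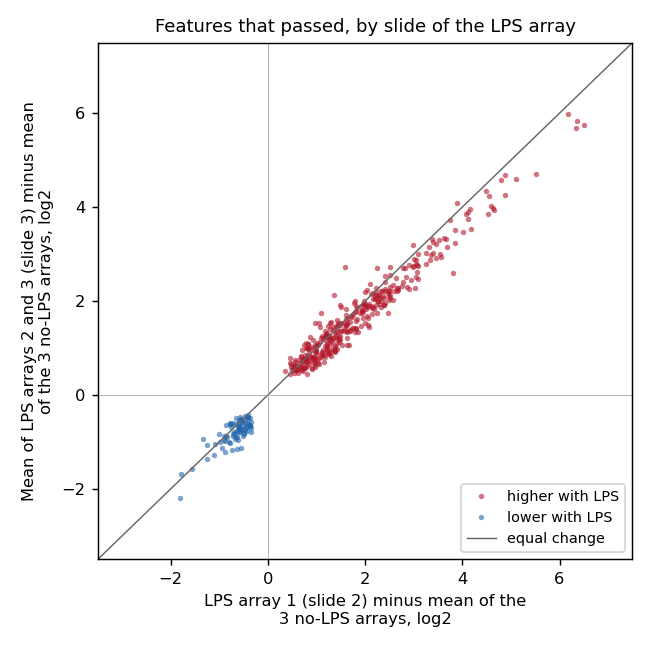
Each point is a feature that passed, with its log2 change on LPS array 1 (slide 2, horizontal axis) and the mean log2 change on LPS arrays 2 and 3 (slide 3, vertical axis), both against the mean of the 3 no-LPS arrays. The line marks equal change. Of 352 features that rose, 258 lie below the line, and the points that fell lie mostly below it as well.

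Whether LPS acted differently under the lincRNA-Tnfaip3 siRNA than under the control siRNA was tested by the difference of the LPS changes in the same fit. No feature passed (smallest adjusted p 0.89), 905 had an unadjusted p under 0.05 (3.78%), and leaving out 1 array gave 0 in 10 of 12 fits, 1 without no-LPS array 1 of the lincRNA-siRNA cells and 311 without no-LPS array 3 of the control-siRNA cells. That control array was the only array of its group on slide 2, the other 2 being alone on slide 1. With slide as a block the difference rests on LPS array 1 of the lincRNA-siRNA cells and that control array, each alone for its group. That fit therefore cannot decide whether the changes differ. LPS under the control siRNA changed 1257 features (5.26%), of which 771 rose (3.22%) and 486 fell (2.03%). At least 2-fold higher were 513 (2.15%) under the control siRNA and at least 2-fold lower 53 (0.222%). The change was larger under the control siRNA for 262 of the 353 features that rose, with medians of 1.51 under the lincRNA-Tnfaip3 siRNA and 1.73 under the control siRNA. For the 86 interferon-stimulated genes tested the median was 1.83 with 41 that rose under the lincRNA-Tnfaip3 siRNA, and 2.76 with 66 that rose under the control siRNA. With LPS the median level of the Mx and IFIT list was 3.87, 3.59 and 3.45 under the lincRNA-Tnfaip3 siRNA. Under the control siRNA it was 3.66, 4.09 and 4.02. On the 2 control-siRNA arrays of slide 1, 48.8% and 52.9% of probes were well above background, against 58.7% to 65.4% on the other arrays. The part of the no-LPS arrays in these comparisons was not tested. Among genes with a symbol that changed in the lincRNA-siRNA cells, the lowest p of the difference belonged to Wnt10a, a secreted Wnt ligand named after its values were seen, with log2 changes of 2.27 under the lincRNA-Tnfaip3 siRNA and 3.72 under the control siRNA and a difference of -1.44 (95% interval -2.19 to -0.70, adjusted p = 0.89). Tnfaip3 had log2 changes of 1.30 under the lincRNA-Tnfaip3 siRNA and 1.33 under the control siRNA, a difference of -0.02 (95% interval -0.66 to 0.62). The interval for Il6 was -1.90 to 0.27, for Ifnb1 -1.58 to 1.18 and for Cxcl10 -0.81 to 0.71.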

How the data were processed

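Per the file headers, the scanner files of the 12 arrays were made with Agilent Feature Extraction 10.7.1.1, and probe positions are on mm9. The processed signal used here is an intensity that the software had background-corrected, as deposited by the authors. A deposited table of log2 values for the same probes was used as an alternative. Its columns had equal medians of 4.748 and ranked probes as the scanner files did (Spearman at least 0.99999), and no source used here gives its normalization.

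Control spots and outlier spots were left out, spots of a probe were averaged, and the log2 of the signal minus the 75th percentile of the array was taken. A probe was kept if some group had it well above background on each of its 3 arrays (33157, 59.5%), and the brightest kept probe stood for a gene. In 3888 genes with more than 1 kept probe, 13 calls had another probe that changed the other way. Accession-named probes were given current symbols from RefSeq. The fit used limma 3.58.1 in R 4.3.3 (lmFit and eBayes), with 1 mean for each of the 4 groups over the 12 arrays and 8 residual degrees of freedom, with p-values adjusted by Benjamini-Hochberg over 23913 features and a threshold of 0.05. The fit was tested on simulated data. With 3 arrays against 3 an exact permutation test of single values could not go below 0.1, so none was run. The number of arrays limits the precision.

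The genes named were the 15 highest and 15 lowest changes without overlap between the groups, up to 5 members per list with the largest absolute change, Tnfaip3, and the 3 highest and 3 lowest lincRNA regions. The widest gaps among the LPS arrays named 5 more genes. None of those 5 passed, and of them Tbxas1 is described. Genes outside the rule are said to be so. Some genes that the rule named are not reported here. The members and lists were chosen with earlier results of these data known.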

Additional observations from a re-analysis of the deposited data

How the results depend on the processing

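The main counts were 353 features that rose, 81 that fell, 260 that rose at least 2-fold and 0 whose LPS change differed between the siRNAs. The number that rose stayed within 1.5 times of 353 under normexp background correction, quantile normalization, median centring, another percentile base, the authors' table, either filter, averaged probes, a random slide block and robust eBayes, at 251 to 374. It was 140 with the 6 arrays alone, 146 with slide as a fixed block, 48 within slide 2 and 108 without both LPS arrays of slide 3, which was added after seeing the data. At least 2-fold higher were 132, 132, 48 and 104 under those settings. The number that fell was 46 with median centring, 27 without a filter (36282 features tested), 2 with the 6 arrays alone, 14 with slide as a fixed block, 47 with slide as a random block, 3 within slide 2, 38 without both control-siRNA arrays of slide 1 and 10 without both LPS arrays of slide 3. Median centring moved the median log2 change of all features to -0.105. Leaving out 1 array gave 216 to 361 that rose, 25 to 87 that fell, 178 to 307 that rose at least 2-fold and 0 to 311 that differed between the siRNAs. With signals under the floor of an array raised to it, also added after seeing the data, 336 rose, 81 fell and 240 rose at least 2-fold. Fewer arrays leave fewer degrees of freedom in these fits, and otherwise the cause was not tested.

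The deviations of same-numbered LPS and no-LPS arrays from their group means had correlations of 0.34, -0.30 and -0.13 in the lincRNA-siRNA cells. In the control-siRNA cells the correlations were -0.07, 0.29 and 0.32. With groups of 3 arrays and slides that differ between same-numbered arrays, these values cannot decide whether the numbers pair the samples. With the replicate block, 311 rose, 78 fell, 243 rose at least 2-fold and 0 differed between the siRNAs.

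Of the 138 genes and regions named in the text that passed, 10 did not pass with normexp background correction: Tnfsf10, Fpr2, Ifi211, Ptger2, Tapbp, Il18bp, Pira2, Slc9b1, Susd3 and Ereg. That correction also moved 37 of the 138 log2 changes by over 1.5 times. With median centring 28 did not pass, namely 2 lincRNA regions and Irf9, Nfkb2, Ikbke, Traf1, Traf5, Irak3, Tlr4, Zfp36, Zfp36l2, Nos2, Tapbp, Il18bp, Bcl2l1, Abcg1, Dbp, Trp53inp1, Cdkn1a, Ppp1r15a, Pirb, Pira11, Lilr4b, Treml1, Fam78a, Megf9, Susd3 and Tgfbr2. Without a filter 27 did not pass, with averaged probes 10, with a random slide block 18, with the replicate block 14, and with quantile normalization, the authors' table or the other percentile base 3 each. With the 6 lincRNA-siRNA arrays alone 72 of the 138 did not pass, among them Cish, Mx1, Mx2, Csf3, Tnfaip3 and Acod1. The settings whose LPS change rests on LPS array 1 alone, the fixed slide block among them, ended still more of these calls. Signals raised to the floor ended 5 calls, those of Tnfsf10, Ifi211, Ptger2, Cd69 and Ereg. No named gene or region that passed changed direction under any of these alternatives. All features that passed had groups without overlap on these same arrays, so fits on fewer arrays could not reverse a sign.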

Other observations

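Further genes with a role outside the lists were among those that rose, and the ones named here were chosen after their values were seen. Edn1, which encodes the vasoconstrictor endothelin, had levels of -0.49, -0.58 and -0.83 with LPS, against -4.61, -4.71 and -4.52 without LPS. It was not above background on 1 no-LPS array, and the fitted log2 change was 3.98 ± 0.16 (SE, limma's adjusted p = 6.11e-06). Hdc, the enzyme that makes histamine, had levels of 2.31, 2.26 and 1.90 with LPS, against -2.10, -1.55 and -1.67 without LPS, a log2 change of 3.93 ± 0.20 (SE, limma's adjusted p = 1.65e-05). Both passed with the slide block (adjusted p 0.0016 and 0.00326). Kdm6b, a histone demethylase, rose by 1.53 ± 0.10 (SE, limma's adjusted p = 6.51e-05) and the kinase Pim1 by 1.76 ± 0.15 (SE, limma's adjusted p = 0.00035). The checkpoint receptor Pdcd1 rose by 2.07 ± 0.23 (SE, limma's adjusted p = 0.00109), with levels of 5.13, 5.06 and 4.96 with LPS against 3.19, 2.89 and 2.84 without LPS.

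Hbegf, an EGF-family ligand, had levels of 1.12, 0.58 and 0.76 with LPS, against -1.75, -1.24 and -1.18 without LPS, a log2 change of 2.21 ± 0.33 (SE, limma's adjusted p = 0.00739). Ereg, of the same family, was below background without LPS and at least 1.26-fold higher (fitted log2 change 2.40, limma's adjusted p = 0.00742). Ereg did not pass with its signals raised to the floor or with normexp background correction (limma's adjusted p 0.823 and 0.348). Fap, a surface protease, was below background without LPS and at least 4.68-fold higher (fitted log2 change 3.14, limma's adjusted p = 0.0246). Il4i1, an amino acid oxidase, had levels of 3.53, 3.61 and 3.16 with LPS, against 1.38, -0.54 and -0.45 without LPS, so that here no-LPS array 1 was the highest of its group. Its log2 change was 3.30 ± 0.59 (SE, limma's adjusted p = 0.0199). Among genes that fell, the ETS factor Fli1 changed by -0.81 ± 0.13, the TGF-beta receptor Tgfbr2 by -0.66 ± 0.11 and the lipase inhibitor Angptl4 by -0.72 ± 0.11 (SE, limma's adjusted p 0.0126, 0.0157 and 0.00684). Fli1, Tgfbr2 and Angptl4 did not pass with the slide block (adjusted p 0.29, 0.32 and 0.173), nor did Hbegf, Fap and Il4i1 (0.106, 0.197 and 0.305). In the 12 fits without 1 array Il4i1, Fap and Tgfbr2 passed in 7, 9 and 10.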
